A study of Mus musculus with 8 samples.

Results

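The expression of 41 genes of amino acid synthesis, uptake and tRNA charging was followed in mouse embryos that lack Arid3b. They are 12 enzymes that make amino acids or the one-carbon units tied to them, 9 plasma membrane carriers and 20 cytosolic aminoacyl-tRNA synthetases. Membership was set by gene name, taking the array probes that carry each name or its current form. All 41 genes had at least 1 probe, 78 probes in all. Of these genes, 40 could be tested, among 17099 genes tested on the whole array.

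Whole embryos at embryonic day 9.0 were compared in 2 groups, wild type and Arid3b-null, with 4 samples each. Every sample was total RNA from a pool of 3 to 4 embryos, labelled with Cy3 and read on a 1-colour Agilent whole mouse array. The Arid3b product binds DNA through an AT-rich interaction domain, and the comparison asks which transcripts differ without it. Mouse strain, the allele and the litters behind the pools are not stated in the sources used here, and the p-values therefore reflect how much these pools varied, which may be partly technical. Pools 1 and 2 of both groups shared slide 1, and pools 3 and 4 shared slide 2. Wild-type pools held positions 1 and 2 of each slide and null pools positions 3 and 4, so position and genotype cannot be told apart.

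Cells obtain amino acids by making them, by importing them through membrane carriers and by recycling protein. Each amino acid is then joined to its tRNA by a dedicated synthetase before it can enter a protein. When amino acids run short, uncharged tRNA activates the kinase encoded by Eif2ak4, which phosphorylates the initiation factor eIF2. Translation of the transcription factor ATF4 then rises, and ATF4, paired with a C/EBP family partner, is known to act on many genes of synthesis, uptake and charging. Other eIF2 kinases respond to stress of the endoplasmic reticulum, haem shortage or double-stranded RNA and lead to the same factor.

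Signals are log2 processed intensities relative to each array's 75th percentile, so 0 is the level of that percentile, and a difference is null minus wild type on the log2 scale. Levels of different genes come from different probes and are not compared. A gene was called where its limma p-value, adjusted by Benjamini-Hochberg over all genes tested, was under 0.05. On each array 60.0% to 64.1% of the probes lay well above background, and the 75th percentile of the processed intensity was 1280 to 1703. Arid3b itself read 3.47, 3.29, 3.39 and 3.31 in wild-type pools 1 to 4, and 1.89, 1.83, 1.85 and 2.48 in null pools 1 to 4. The null signal was 39.2% of wild type (limma adjusted p = 0.00577), and the sources used here do not say which part of Arid3b was deleted. Y-linked transcripts, scaled so that the highest pool is 1, stood at 0.0228, 0.836, 0.280 and 0.0259 in wild-type pools 1 to 4 and at 0.516, 0.870, 0.479 and 1 in null pools 1 to 4. Pools thus differed in embryo sex, and fits with this level as a covariate are given where they end a call. Markers of heart, neural tube, paraxial mesoderm, yolk sac endoderm and primitive erythroid cells were all measured, and 3 of 6 trophoblast markers passed the filter on dim probes.

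Over all genes tested, 718 (4.20%) were called, 487 of them higher (2.85%) and 231 lower (1.35%) in the null pools, so 67.8% of the calls were higher. With a median shift between arrays in place of the 75th percentile 52.0% of 204 calls were higher, and with no shift 79.6% of 157. Among the 40 genes of amino acid metabolism tested, 4 were called and all 4 rose in the null pools. They were the carriers Slc7a3, Slc1a4 and Slc3a2 and the enzyme gene Shmt2. Transport held 3 calls among 8 tested genes, synthesis 1 among 12 and the synthetases 0 among 20. The median difference was 0.34 for transport, 0.22 for synthesis and -0.04 for the synthetases, against -0.01 over all genes tested. The null mean lay above the wild-type mean for 11 of 12 synthesis genes, 6 of 8 carriers and 9 of 20 synthetases, and for 48.7% of all genes tested. No test compared the 3 subgroups with each other. The count for the synthetases was 6 with a median shift or no shift and 12 with normexp background correction. That for synthesis was 10 under these 3 settings and 9 with the Y-linked level as a covariate. The median over all genes tested was -0.10 with a median shift, -0.08 with no shift and -0.07 with normexp.

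**Figure D1:**
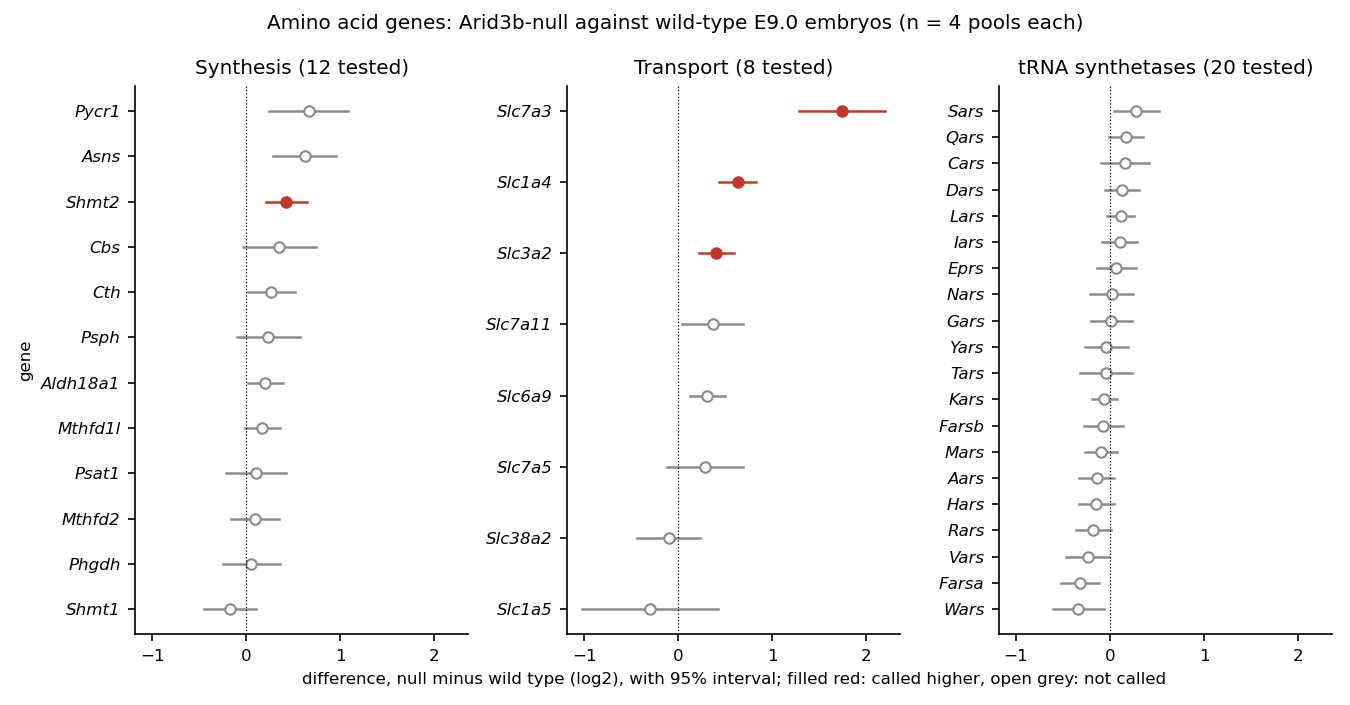
Difference of each tested gene, null minus wild type (log2, x axis), with its 95% interval, for synthesis, transport and synthetase genes. Filled red points are the 4 called genes, Slc7a3, Slc1a4, Slc3a2 and Shmt2, and open grey points the 36 not called; the synthetases lie on both sides of 0.

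Groups that did not overlap were seen for 12 of the 40 genes, 10 with all null pools higher and 2 with all null pools lower, beside 16.1% of all genes tested (8.08% higher and 8.06% lower). The 10 were Asns, Shmt2, Aldh18a1 and Pycr1 among the enzymes, Slc3a2, Slc7a3, Slc1a4 and Slc6a9 among the carriers, and Lars and Sars among the synthetases. The 2 were Kars and Farsa. Asns had values in only 3 null pools, and its groups overlapped when the flagged spot of null pool 3 was kept. Pools with the same number deviated together, though the labels do not pair them. With slide means removed, the correlation of their deviations was 0.518 on slide 1 and 0.0981 on slide 2. With the pool number as a block (the replicate block), 13.7% of all genes tested (7.78% higher and 5.92% lower) and 9 of the 40 genes were called. Asns, Slc6a9 and Slc7a5 joined the 4 above as higher, and Farsa and Wars were lower. With the slide as a block 8.01% of all genes tested (4.71% higher and 3.30% lower) and 8 of the 40 genes were called, the same 9 genes without Slc7a5.

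Promoters are shown for the called genes that have an entry, and for 5 other members whose promoter holds the core of the composite C/EBP-ATF element, the sequence that ATF4 and its partners are known to bind. The core searched was TGATGNAA, read on either strand, where it appears as TTNCATCA on the other, and no other motif was searched. Sequences are RefSeq's on GRCm38.p6, a later build than the mm7 positions of the probes. They run 5′ to 3′ along the gene, from 250 bases before the start to 10 after it, with the motif in capitals.
Slc1a4, chr11:20332704-20332963, minus strand: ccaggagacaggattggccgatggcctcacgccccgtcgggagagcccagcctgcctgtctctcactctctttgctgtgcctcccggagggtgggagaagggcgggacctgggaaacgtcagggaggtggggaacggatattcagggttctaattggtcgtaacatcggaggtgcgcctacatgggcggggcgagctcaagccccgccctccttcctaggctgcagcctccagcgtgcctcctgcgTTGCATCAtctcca
Slc3a2, chr19:8713888-8714147, minus strand: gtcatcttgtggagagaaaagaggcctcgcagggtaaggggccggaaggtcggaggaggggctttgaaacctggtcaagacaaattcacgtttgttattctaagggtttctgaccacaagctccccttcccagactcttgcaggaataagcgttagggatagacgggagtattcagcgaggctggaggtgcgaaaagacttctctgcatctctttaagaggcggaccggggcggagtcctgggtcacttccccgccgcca
Shmt2, chr10:127522435-127522694, minus strand: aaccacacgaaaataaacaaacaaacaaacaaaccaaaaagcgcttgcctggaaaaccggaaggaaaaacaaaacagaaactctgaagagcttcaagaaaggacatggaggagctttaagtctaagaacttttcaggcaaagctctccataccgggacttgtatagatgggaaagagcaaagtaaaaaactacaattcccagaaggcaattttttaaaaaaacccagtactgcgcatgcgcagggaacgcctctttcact
Asns, chr6:7693200-7693459, minus strand: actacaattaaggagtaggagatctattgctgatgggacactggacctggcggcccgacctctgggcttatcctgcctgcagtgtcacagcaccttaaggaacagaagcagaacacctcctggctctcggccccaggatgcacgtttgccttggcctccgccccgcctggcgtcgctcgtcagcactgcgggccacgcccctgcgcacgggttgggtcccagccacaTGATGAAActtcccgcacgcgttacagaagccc
Pycr1, chr11:120643739-120643998, minus strand: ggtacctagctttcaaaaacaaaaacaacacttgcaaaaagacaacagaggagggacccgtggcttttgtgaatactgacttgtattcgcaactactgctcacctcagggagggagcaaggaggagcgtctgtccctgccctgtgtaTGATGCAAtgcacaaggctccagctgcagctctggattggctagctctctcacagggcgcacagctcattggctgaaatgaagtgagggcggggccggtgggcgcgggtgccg
Aars, chr8:111033592-111033851, plus strand: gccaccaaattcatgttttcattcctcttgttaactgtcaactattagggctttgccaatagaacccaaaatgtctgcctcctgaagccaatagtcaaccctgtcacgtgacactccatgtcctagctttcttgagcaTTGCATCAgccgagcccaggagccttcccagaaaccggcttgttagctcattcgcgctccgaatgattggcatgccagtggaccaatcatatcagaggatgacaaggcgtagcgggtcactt
Gars, chr6:55037751-55038010, plus strand: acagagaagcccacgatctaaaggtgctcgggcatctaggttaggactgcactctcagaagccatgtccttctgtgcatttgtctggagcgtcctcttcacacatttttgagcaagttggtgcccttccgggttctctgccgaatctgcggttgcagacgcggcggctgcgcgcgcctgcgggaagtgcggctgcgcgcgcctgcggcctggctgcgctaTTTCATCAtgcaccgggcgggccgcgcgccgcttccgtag
Tars, chr15:11399649-11399908, minus strand: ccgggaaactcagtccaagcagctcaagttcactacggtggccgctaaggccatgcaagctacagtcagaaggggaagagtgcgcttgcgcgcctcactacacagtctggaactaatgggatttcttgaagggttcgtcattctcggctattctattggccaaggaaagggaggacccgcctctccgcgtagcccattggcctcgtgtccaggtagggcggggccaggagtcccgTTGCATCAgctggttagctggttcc

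Of the 41 genes, 30 had a promoter window in the RefSeq table, from 250 bases before to 50 after the start. The motif was found in 9 of them (30.0%), against 4.51% of 27025 genes with a window and 2.70% of 11428 tested genes with one. Of 346 genes called higher with a window, 20 (5.78%) held it. Many genes of this kind are known ATF4 targets, so the share among the members describes the list and not the null embryos. No test compared these shares. The 9 were the enzyme genes Asns and Pycr1, the carriers Slc1a4 and Slc7a11 and the synthetases Aars, Gars, Iars, Tars and Yars, which is 2 of 11, 2 of 6 and 5 of 13 windows. In Asns it began 23 bases before the start, in Pycr1 103, in Gars 30, in Tars 15 and in Slc1a4 4. Slc7a11 held it at 66 and 47 bases before the start, on opposite strands. Aars held a copy 112 bases before the start and another after it, and in Iars and Yars the match began after the start. Among the called genes Slc1a4 held the motif, while the windows of Slc3a2 and Shmt2 did not contain these letters. Of the 5 synthetase genes with it, none was called, and their differences ran from -0.14 in Aars to 0.10 in Iars. Slc7a3, Slc7a5, Slc1a5, Cth, Wars, Cars, Rars, Vars, Hars, Lars and Nars had no entry. A match describes letters in the window and does not show that a factor binds there.

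Slc7a3, which encodes a carrier of arginine, lysine and other cationic amino acids, rose most among the 40 genes. Its signal was -1.25, -1.48, -1.03 and -1.05 in wild-type pools 1 to 4, and 0.20, 1.10, 0.47 and 0.39 in null pools 1 to 4. Every null pool lay above every wild-type pool, with null pool 2 highest. The difference was 1.74 ± 0.20 (SE), a 3.35-fold rise (95% interval 2.44 to 4.60) with a limma adjusted p of 0.00637. The 1 probe lies on chromosome X (mm7, chrX:96406676-96406735). The call held without each pool in turn (adjusted p 0.00541 to 0.0306) and with the Y-linked level as a covariate (difference 1.78, adjusted p = 0.0342). It was lost with normexp (adjusted p = 0.236), as was every call, since 0 of the 17099 genes tested were called under that setting. Within slide 1 the difference was 2.01 and within slide 2 1.47, where 2 pools a group gave adjusted p of 0.289 and 0.102.

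Slc1a4 encodes an exchanger of small neutral amino acids such as alanine, serine and cysteine. Its wild-type pools read -0.64, -0.78, -0.55 and -0.71 and its null pools -0.03, 0.11, -0.15 and -0.07, in order of pool number. The groups lay apart, and the spread within each was small, with SDs of 0.10 and 0.11 (n = 4 each). The difference was 0.64 ± 0.09 (SE), a 1.55-fold rise (95% interval 1.35 to 1.78, limma adjusted p = 0.0124). A second probe gave 0.77 ± 0.17, although wild-type pool 4 stood apart on it at -0.59 against -1.16 to -1.32 in the other wild-type pools. The 2 probes lie at chr11:20254539-20254598 and chr11:20255454-20255513 (mm7). The call was lost without wild-type pool 1 (adjusted p = 0.0511) or wild-type pool 4 (0.0571) and with a median shift (0.0751), no shift (0.110) or normexp (0.936). Within slides 1 and 2 the differences were 0.75 and 0.52.

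Slc3a2 encodes the heavy chain that carries several amino acid exchangers, the products of Slc7a5 and Slc7a11 among them, to the cell surface. Wild-type pools 1 to 4 read 3.53, 3.42, 3.44 and 3.46 and null pools 1 to 4 read 3.83, 4.04, 3.86 and 3.75. All null pools were higher. The rise was 1.33-fold (difference 0.41 ± 0.08 SE, limma adjusted p = 0.0377) on the probe at chr19:8387861-8387920 (mm7). A second probe, at chr19:8393855-8393914 on the minus strand, differed by 0.43 ± 0.14 (SE; limma adjusted p = 0.143 over probes). It is shown because it reaches the other end of the transcript, with the first ATG in capitals.
Slc3a2 second probe: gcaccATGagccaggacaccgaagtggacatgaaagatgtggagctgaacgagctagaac

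No stop codon follows that ATG in frame within the probe. Both Slc3a2 probes differed in the same direction, but with their mean Slc3a2 was not called (adjusted p = 0.0734). The call on the brighter probe was kept without null pool 2 (adjusted p = 0.0478) or null pool 4 (0.0390) and lost without any other pool, at 0.0968, 0.103, 0.0976 and 0.111 for wild-type pools 1 to 4 and 0.0687 and 0.107 for null pools 1 and 3. The adjusted p was 0.0871 with the Y-linked level as a covariate, 0.237 with a median shift, 0.233 with no shift, 0.0980 with no filter on dim probes and 0.996 with normexp, and within slides 1 and 2 the differences were 0.47 and 0.35.

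Slc7a5 and Slc7a11, 2 light chains that pair with this heavy chain, were not called. Slc7a5, a carrier of large neutral amino acids, read 0.67, 1.10, 0.55 and 0.73 in wild-type pools 1 to 4 and 0.96, 1.41, 0.68 and 1.15 in null pools 1 to 4. Each null pool lay above the wild-type pool of its own number, yet the groups overlapped. The difference was 0.29 ± 0.18 (SE, limma adjusted p = 0.423), against an adjusted p of 0.0482 with a replicate block. The difference was 0.01 with the Y-linked level as a covariate (adjusted p = 0.978). Slc7a11, the cystine and glutamate exchanger subunit, differed by 0.37 ± 0.14 (adjusted p = 0.183) on a dim probe, the one of its 4 probes that passed the filter on dim probes. With normexp its difference was -0.15.

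Slc6a9, a glycine transporter gene, had all null pools (1.92, 2.06, 2.09 and 2.18) above all wild-type pools (1.71, 1.67, 1.84 and 1.79). Its difference of 0.31 ± 0.08 (SE) had a limma adjusted p of 0.0757, and 0.0340 with a replicate block. The neutral carriers Slc1a5 and Slc38a2, both used for glutamine uptake, differed by -0.30 ± 0.31 and -0.10 ± 0.15, with adjusted p of 0.662 and 0.778. Slc1a5 varied widely in both groups, from 1.74 to 2.75 in wild-type and from 1.52 to 2.67 in null pools, and pool 2 was lowest in each. Of 4 Slc38a2 probes, 3 differed by -0.12 to -0.03, and the probe of the clone AK164568 at chr15:96699481-96699540 (mm7) differed by 0.50 ± 0.14 (limma adjusted p = 0.101 over probes), so that the mean of all 4 gave 0.06. Slc7a1, another cationic carrier, passed background in 2 wild-type pools and 1 null pool and was not tested.

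**Figure D2:**
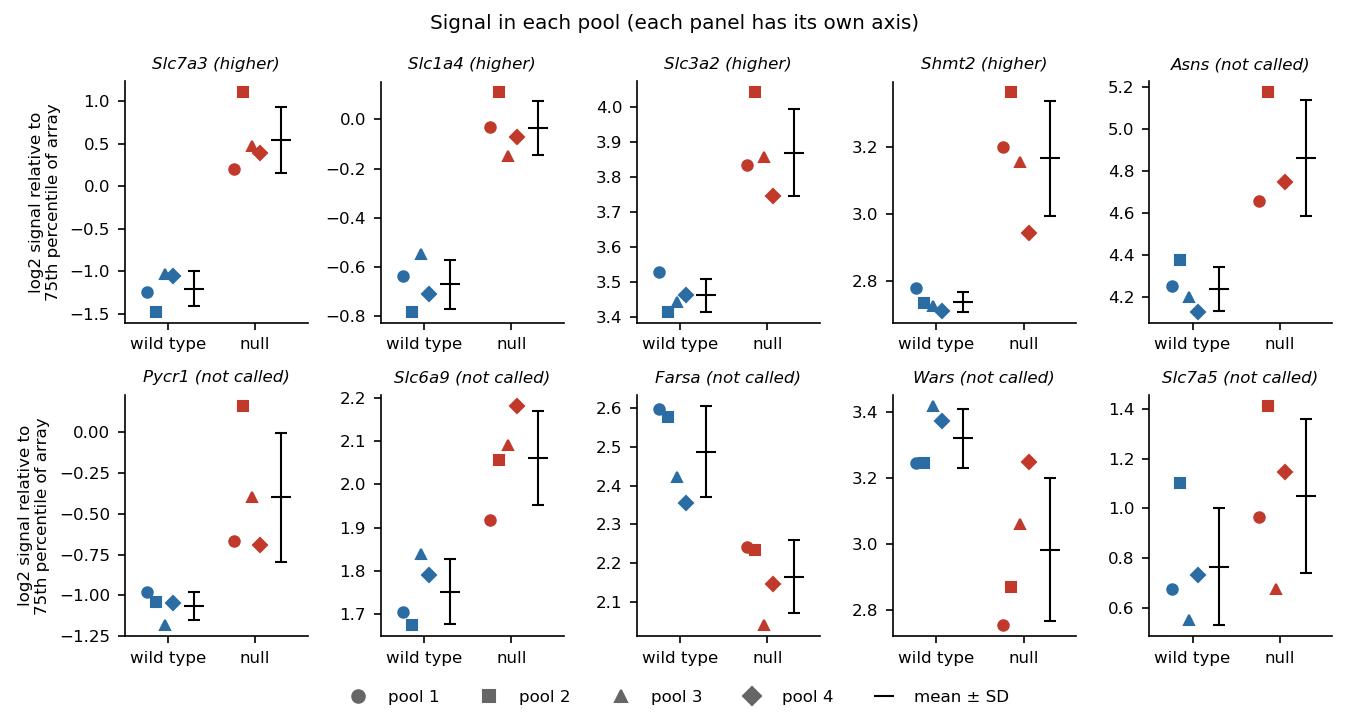
Log2 signal relative to the array's 75th percentile (y axis, a separate range in each panel) in the 4 wild-type pools (blue) and 4 null pools (red) for 10 genes, with mean ± SD beside each group. Marker shapes give the pool number. Null pool 3 has no point for Asns. Null pools lie above wild type without overlap in the first 7 panels and below it in the Farsa panel, and the groups overlap for Wars and Slc7a5.

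Among the enzymes, Shmt2 rose in the null pools. It encodes the mitochondrial serine hydroxymethyltransferase, which turns serine into glycine and a one-carbon unit. Wild-type pools 1 to 4 read 2.78, 2.73, 2.72 and 2.71 and null pools 1 to 4 read 3.20, 3.36, 3.15 and 2.94. The wild-type pools lay close together (SD 0.03, n = 4) and below every null pool (SD 0.17, n = 4). The rise was 1.35-fold (difference 0.43 ± 0.09 SE, 95% interval 1.16 to 1.56 as a fold, limma adjusted p = 0.0471) on the probe at chr10:127019144-127019203 (mm7). The call stood near the threshold. It was kept without null pool 4 (adjusted p = 0.0273) and lost without any of the other 7 pools, at 0.121, 0.119, 0.113 and 0.133 for wild-type pools 1 to 4 and 0.0969, 0.0679 and 0.129 for null pools 1 to 3. The adjusted p was 0.106 with the Y-linked level as a covariate, 0.249 with a median shift, 0.214 with no shift, 0.115 with no filter on dim probes, 0.0539 with the deposited value table and 0.996 with normexp, and within slides 1 and 2 the differences were 0.52 and 0.33.

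The cytosolic partner Shmt1 differed by -0.18 ± 0.12 (adjusted p = 0.475) and was the 1 synthesis gene with a lower null mean. Mthfd2 and Mthfd1l, which carry the one-carbon unit onward in the mitochondrion, differed by 0.10 ± 0.11 and 0.17 ± 0.08 (adjusted p = 0.695 and 0.278). The 3 serine synthesis enzymes Phgdh, Psat1 and Psph differed by 0.05 ± 0.13, 0.10 ± 0.14 and 0.23 ± 0.15, with adjusted p of 0.882, 0.746 and 0.425. For Phgdh the interval allowed a fold between 0.842 and 1.28. Null pool 2 was the highest null pool in all 3, and without it the differences were -0.05, -0.02 and 0.10. Phgdh also turned to -0.04 with a median shift and -0.02 with no shift, where the median of all genes tested was -0.10 and -0.08.

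Asns, which makes asparagine from aspartate, read 4.25, 4.37, 4.20 and 4.13 in the wild-type pools. Null pools 1, 2 and 4 read 4.65, 5.17 and 4.75, all above wild type, and the spot of null pool 3 was left out because the scanner software flagged it as not uniform. Over these 7 values the difference was 0.62 ± 0.14 (SE), 1.54-fold, with a limma adjusted p of 0.0578. It was 0.0362 with a replicate block and 0.0481 with a slide block, and 0.0285 with quantile normalization. With the flagged spot kept, an alternative chosen after seeing the data, null pool 3 read 2.48 and the difference was 0.03 (adjusted p = 0.987). The Yars spot on the same array carried the same kind of flag and read 2.05 when kept, against 2.80 to 3.06 in the other null pools.

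Pycr1 and Aldh18a1 act in proline synthesis from glutamate. Pycr1 read -0.98, -1.04, -1.18 and -1.05 in the wild-type pools and -0.67, 0.16, -0.40 and -0.69 in the null pools, which lay apart from them with null pool 2 far above the rest. The difference was 0.66 ± 0.18 (SE, limma adjusted p = 0.0877), and 0.48 without null pool 2 (adjusted p = 0.0575). Aldh18a1 differed by 0.20 ± 0.08 (adjusted p = 0.208) with all null pools at or above 0.48 and all wild-type pools at or below that level. Cbs and Cth, the 2 enzymes that convert homocysteine to cysteine, differed by 0.35 ± 0.17 and 0.27 ± 0.11 (adjusted p = 0.286 and 0.210), and their groups overlapped. The Cbs difference was 0.18 in the deposited value table, 0.19 without null pool 2 and -0.13 with normexp.

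Null pool 2 stood out across the enzymes. It was the highest null pool for 11 of 12 synthesis genes, Mthfd1l being the exception, against 34.5% of all genes tested. The median deviation of the synthesis genes from their wild-type means was 0.09, 0.48, 0.12 and 0.17 in null pools 1 to 4. The carriers were more even, at 0.29, 0.44, 0.37 and 0.34, and the synthetases lay at -0.07, 0.00, 0.05 and -0.03. Without null pool 2 the synthesis median was 0.17 and 9 of 12 genes had a higher null mean. In the wild-type pools the synthesis medians lay between -0.05 and 0.03. Null pool 2 was also the highest null pool for 11 of the 18 genes of the stress list described further on.

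**Figure D3:**
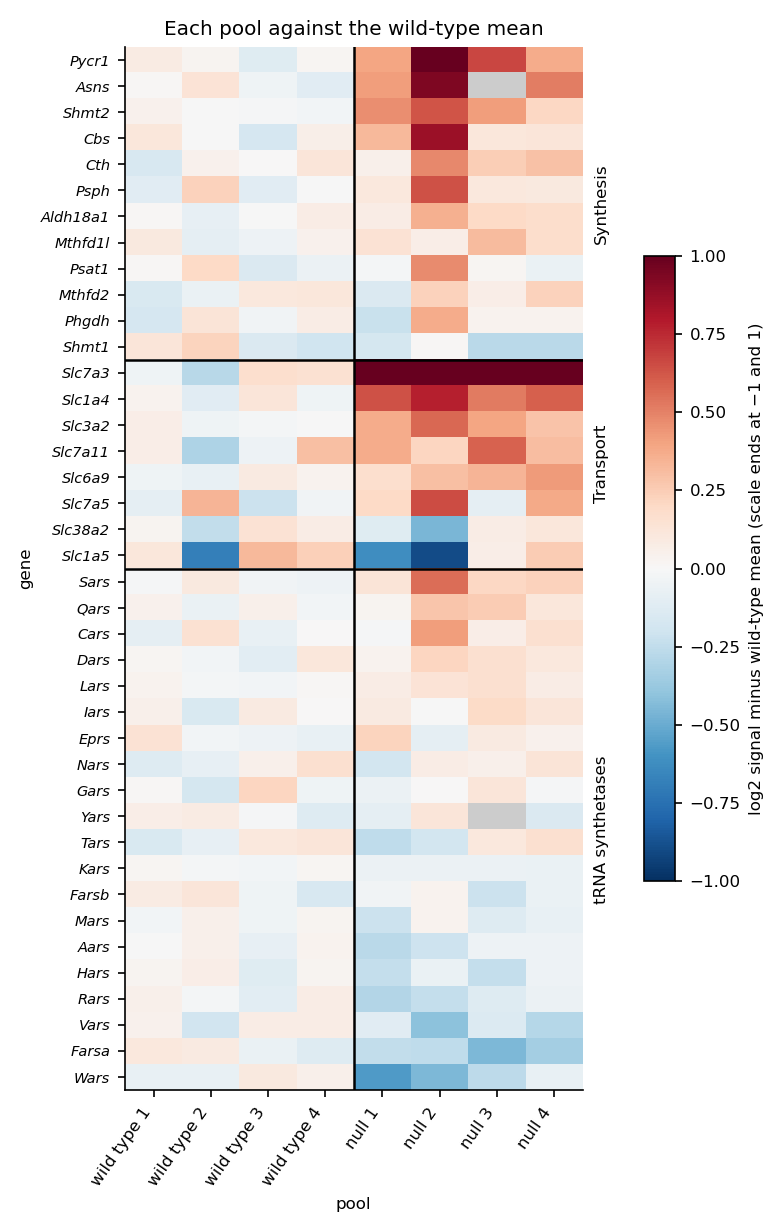
Log2 signal of each of the 40 tested genes in each pool minus the wild-type mean of that gene (colour, with the scale ending at -1 and 1, so that Slc7a3 runs past it), ordered by difference within synthesis, transport and synthetases. Grey cells are the 2 flagged spots of null pool 3. Null pool 2 is the darkest red column among the synthesis genes, while the synthetase rows stay pale in most pools.

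None of the 20 cytosolic synthetase genes was called by limma, and 4 of them had an unadjusted p under 0.05, a share near the 20.7% of all genes tested. These 4 were Farsa, Wars and Vars, with lower null means, and Sars, with a higher one. The 95% interval of the difference lay within 1.5-fold in either direction for 19 of the 20, Wars being the exception with a lower bound of -0.60. Differences ran from -0.34 in Wars to 0.28 in Sars.

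Farsa encodes the alpha subunit of the phenylalanine enzyme. It read 2.60, 2.57, 2.42 and 2.35 in wild-type and 2.24, 2.23, 2.04 and 2.15 in null pools 1 to 4, without overlap. The difference was -0.32 ± 0.09 (SE, limma adjusted p = 0.0819), and 0.0296 with a replicate block. A second probe gave -0.30 ± 0.09 and the remaining, dim one 0.10 ± 0.17. Farsb, the beta subunit, differed by -0.07 ± 0.09 (adjusted p = 0.740).

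Wars, the tryptophan enzyme, read 3.24, 3.24, 3.42 and 3.37 in wild-type and 2.75, 2.87, 3.06 and 3.25 in null pools 1 to 4. Null pool 4 overlapped with wild type. Both of its probes differed by -0.34, with SEs of 0.12 and 0.11, and the brighter had a limma adjusted p of 0.149. With the mean of both probes it was 0.0465, and 0.0459 with a replicate block. Sars, the serine enzyme, had null pools at 4.38, 4.81, 4.46 and 4.48 above wild-type pools at 4.24, 4.35, 4.21 and 4.20, a difference of 0.28 ± 0.10 (adjusted p = 0.175).

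The other 16 synthetase genes differed by between -0.24 in Vars and 0.17 in Qars. Higher null means were seen for Qars, Cars, Dars, Lars, Iars, Eprs, Nars and Gars, whose differences ran from 0.17 to 0.01 in that order. Lower null means were seen for Yars, Tars, Kars, Mars, Aars, Hars, Rars and Vars, from -0.04 to -0.24. Eprs, Nars and Gars turned below 0 with a median shift or no shift, where the median of all genes tested was -0.10 and -0.08. Yars, Tars and Mars turned above 0 with normexp. Kars, the lysine enzyme, varied little across pools. Its wild-type pools lay between 4.79 and 4.84 and null pools between 4.75 and 4.76, so the groups did not overlap although the difference was -0.06 ± 0.06 (adjusted p = 0.642). For 3 of the members (Vars, Farsa and Farsb) the array carries an older gene name.

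**Figure D4:**
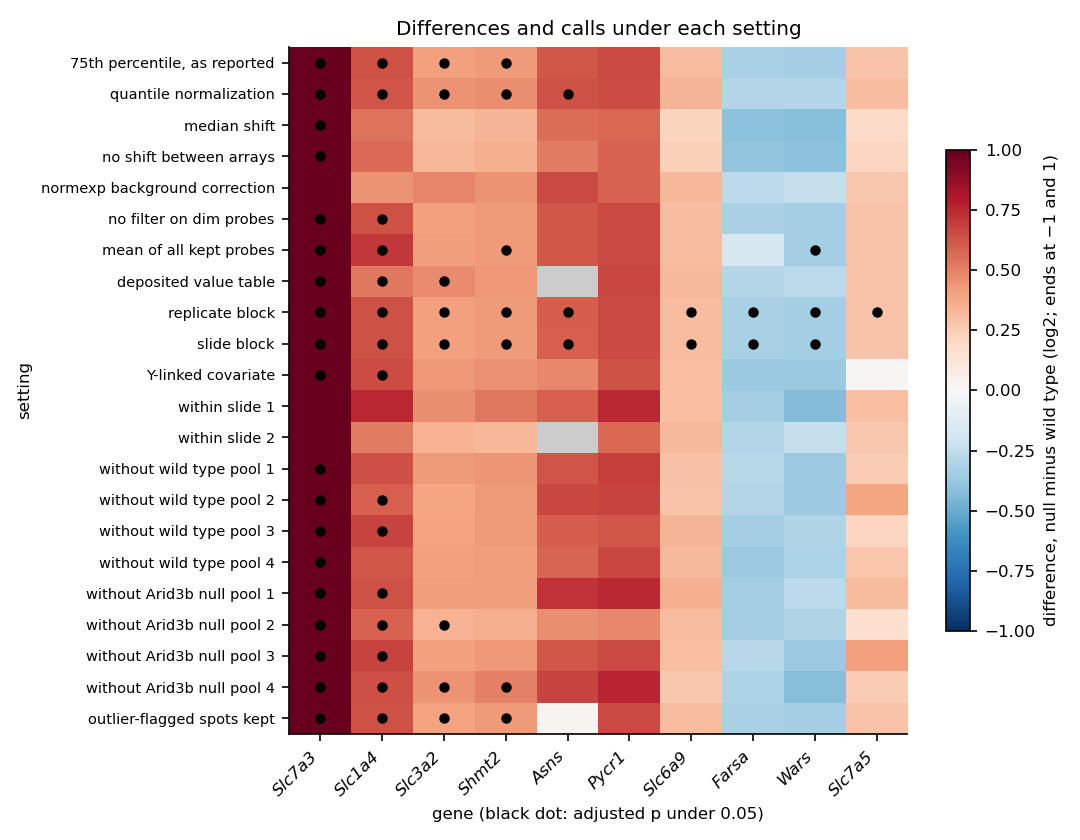
Difference of 10 genes (columns), null minus wild type (colour, log2), under each setting (rows), with a black dot where the adjusted p was under 0.05. Grey cells have no value. Slc7a3 carries a dot in each fit without 1 pool and none with normexp background correction or within 1 slide, while Asns, Slc6a9, Farsa, Wars and Slc7a5 gain dots with the replicate block.

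The wider pathway was followed in lists of other genes, taken by function. Of 30 tested genes of other amino acid synthesis, breakdown and one-carbon steps, 4 rose and 1 fell, with a median difference of -0.09. Over all genes tested, 2.85% were called higher and 1.35% lower. Nags, whose product makes the activator of the first urea cycle step, was called higher (limma adjusted p = 0.00175). Its probe passed background in 2 of the 4 wild-type pools and all 4 null pools, so no fold is given. Aldh1l2, a mitochondrial enzyme that oxidises the one-carbon unit carried by folate, rose 2.99-fold (adjusted p = 0.0114) on a dim probe. Its wild-type mean was -5.07, and its difference of 1.58 was 0.83 in the deposited value table. Gls2, a glutaminase, and Gpt2, the mitochondrial alanine aminotransferase, each rose 1.62-fold (adjusted p = 0.0151 and 0.0285). Mat2a, which makes the methyl donor S-adenosylmethionine, fell by 0.43 ± 0.08 (adjusted p = 0.0323) and is named after its value was seen.

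Of 24 other carriers tested, 2 rose and 1 fell, with a median of 0.06, beside 2.85% higher and 1.35% lower over all genes tested. Slc38a3, a glutamine transporter, rose 2.10-fold from -3.16 ± 0.12 to -2.09 ± 0.32 (SD, n = 4 each, limma adjusted p = 0.0158). Slc7a7, a light chain that also pairs with the Slc3a2 product and exports cationic amino acids, rose 1.38-fold (adjusted p = 0.0285). Slc25a12, the mitochondrial aspartate and glutamate carrier, fell by 0.45 ± 0.07 (adjusted p = 0.0178). Of 17 synthetase genes for the mitochondrion, with a median of -0.17, 1 was called, beside 4.20% of all genes tested. That gene, Cars2, the cysteine enzyme, fell by 0.54 ± 0.08 (adjusted p = 0.0145). None of the 3 scaffold genes of the cytosolic multi-synthetase complex was called by limma, 0 had an unadjusted p under 0.05, and Aimp2 differed by -0.12 ± 0.12 (adjusted p = 0.673).

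Of 18 genes of the stress response led by eIF2 and ATF4, 7 rose and 1 fell, with a median of 0.38. The shares over all genes tested were 2.85% higher and 1.35% lower. Amino acid shortage and other stresses can set off this response, and which of them, if any, acted here was not tested. The list was chosen with earlier results of these data known. The largest rise was that of Chac1, a glutathione-degrading enzyme, at 3.38 ± 0.34 (SE), and the 4 genes with the smallest adjusted p were Vldlr, Ddit4, Ddit3 and Chac1, with 0.00175, 0.00294, 0.00388 and 0.00453. Ddit3 encodes a transcription factor induced by ATF4, Ddit4 an inhibitor of the growth kinase mTORC1, and Vldlr a lipoprotein receptor. Atf4 itself read 1.33, 1.61, 1.57 and 1.65 in wild-type pools 1 to 4 and 1.47, 1.79, 1.42 and 1.70 in null pools 1 to 4, and the groups overlapped. Its means of 1.54 ± 0.14 and 1.59 ± 0.18 (SD, n = 4 each) gave a difference of 0.05 ± 0.11 with a limma adjusted p of 0.857 and a 95% interval of 0.865 to 1.25 as a fold. The array measures its mRNA, not its translation. Eif2ak1, the haem-regulated eIF2 kinase, fell by 0.39 ± 0.08 (adjusted p = 0.0377) and is named after its value was seen. Of 19 genes of amino acid sensing and growth control, none was called by limma and 1 had an unadjusted p under 0.05. That gene was Eif4ebp1, a translation repressor, whose null pools lay above wild type by 0.53 ± 0.13 (adjusted p = 0.0615, and 0.0292 with a replicate block).

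Calls in these lists also depended on single pools. Nags, Chac1, Ddit3, Vldlr and Ddit4 were called in all 8 fits without 1 pool. Aldh1l2 was lost without wild-type pool 4 (limma adjusted p = 0.0506), and Cars2 without wild-type pool 1 or null pool 3 (up to 0.0604). Gls2 was kept in 4 of 8 fits, lost without wild-type pools 1, 2 and 4 and null pool 3 (up to 0.0610). Slc38a3 and Slc25a12 were kept in 3, lost without each wild-type pool and null pool 3 (up to 0.0624 and 0.0708). Gpt2 was kept in 2, without null pool 2 or 4 (otherwise up to 0.0894), and Mat2a, Slc7a7 and Eif2ak1 in 1, without null pool 4, null pool 1 and null pool 4 in that order (otherwise up to 0.0997, 0.0926 and 0.113). With the Y-linked level as a covariate Gpt2, Slc7a7, Mat2a and Eif2ak1 were not called (adjusted p = 0.0956, 0.0933, 0.0631 and 0.0815).

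**Figure D5:**
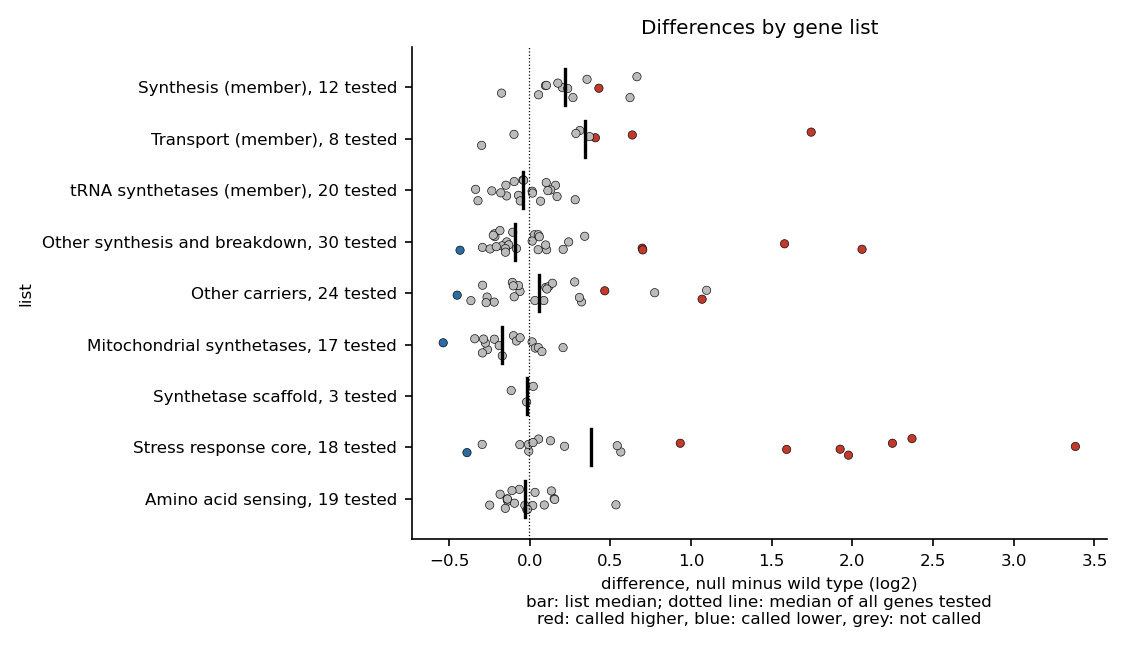
Difference of each tested gene, null minus wild type (log2, x axis), in the 3 groups of members and 6 further lists, with the list median as a bar and the median of all genes tested as a dotted line. Red points are called higher and blue points lower. Transport has a median of 0.34 and the stress list 0.38, while the cytosolic and mitochondrial synthetases centre on -0.04 and -0.17.

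Markers of single tissues were read beside these genes. In whole embryos fewer cells of a type and less RNA per cell cannot be told apart. The summed level of a list is the log2 of its summed signals and is set mainly by its brightest probes. All 5 heart markers had higher null means (median 0.20), and their summed level was 6.90 to 6.99 in wild-type and 7.08 to 7.30 in null pools. All 5 neural tube markers had lower null means (median -0.26), with summed levels of 5.48 to 5.68 and 5.28 to 5.30. Neither list held a called gene. All 7 primitive erythroid markers had lower null means (median -0.28), with summed levels of 8.03 to 8.71 against 7.75 to 8.55. Of these 7, 2 had an unadjusted p under 0.05, and 1, Klf1, was called lower (limma adjusted p = 0.0377). Gata1 also had all null pools below wild type, with a difference of -0.73 (limma adjusted p = 0.0525). Yolk sac endoderm markers overlapped, at 3.60 to 4.47 against 3.54 to 4.45. None of the 5 heart, 5 neural tube, 8 yolk sac, 4 paraxial mesoderm or 3 trophoblast markers tested was called by limma, with 2, 4, 0, 0 and 0 at an unadjusted p under 0.05, beside 20.7% of all genes tested. The part of these tissues in the differences of the amino acid genes was not tested.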

How the data were processed

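RNA of 8 pools of whole embryos was read on 1-colour Agilent arrays (4 wild type, 4 Arid3b-null), grouped and numbered by the labels. Per the file headers, Feature Extraction 9.5.3.1 gave each spot a processed intensity, the Cy3 brightness after spatial background subtraction and detrending, on the mm7 build. The deposited mean and local background intensity were used for an alternative. The authors' deposited log2 value table (27108 probes) was another alternative, whose making the sources used here do not describe.

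Control and outlier-flagged spots were left out, spots of a probe averaged, and each array's 75th percentile of log2 intensity subtracted. The filter kept probes that exceeded background on 4 or more arrays, and the brightest stood for its gene. Names were updated through RefSeq (GRCm38.p6). The comparison used lmFit and eBayes of limma 3.58.1 (R 4.3.3) with genotype as the term. On simulated data for this comparison with 17002 genes, 50, 100 and 50 genes were changed 1.5-fold, 2-fold and 4-fold. Of these changes 42%, 72% and 94% were recovered, and 8 of 148 calls were false. The simulated pools varied independently, without the shared deviations of slide and pool number, so these shares may not carry over to the real arrays. Precision is limited by the number of arrays.

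Same-numbered pools deviated together (correlations of deviations across genes 0.557, 0.635, 0.523 and 0.426), which was taken as pairing; with slide means removed they were 0.518 and 0.0981. The members and lists were chosen with earlier results of these data known. All 41 members were named, with every pool's value for called ones, Arid3b and Atf4, and per list up to 4 called genes with the smallest adjusted p, or the gene with the smallest p. Values of other members were chosen after they were seen. Alternatives are described in the closing section.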

Additional observations from a re-analysis of the deposited data

Results flagged for a closer look

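In 78 groups of 4 pools, 3 held a pool whose gap to its nearest neighbour took up most of the group's range, where chance gives about 1 group in 20. Psat1 read 4.34 in null pool 2, against 3.80 to 3.89 in the other null pools. Psph read 2.53 in null pool 2, against 1.992 to 1.996. Vars read 2.91 in wild-type pool 2, against 3.14 to 3.18 in the other wild-type pools.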

How the results depend on the processing

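Calls over all genes numbered 718, but 0 with normexp background correction (737 at an unadjusted p under 0.05), 204 with a median shift, 157 with no shift, 164 with no filter on dim probes, 462 with the deposited value table and 304 with the Y-linked level as a covariate, while the replicate block gave 2343 and the slide block 1370. Within slides 1 and 2 limma called 0 genes each, with 1881 and 2861 at an unadjusted p under 0.05. Fits without 1 pool gave 93 to 628.
Calls among the amino acid genes numbered 4, but 0 with normexp or within slide 1 or slide 2, 1 with a median shift or no shift and 2 with no filter or the Y-linked covariate, while the replicate block gave 9 and the slide block 8. Fits without 1 pool gave 1 to 4. The synthetase median of -0.04 was 0.020 with normexp, -0.12 with a median shift, -0.12 with no shift and 0.011 with the deposited value table. The median over all genes tested, -0.01, was -0.07, -0.10, -0.08 and -0.01 under these settings in that order. A median shift or no shift moves all genes of an array by the same amount. The cause of the moves with normexp and the deposited value table was not tested. The synthesis and transport medians moved by less than the spread between pools under every alternative run. No call on a named gene reversed, and 35 of 741 values of uncalled members under the alternatives had another sign. The replicate block ended no call among the members. With 4 arrays a group, 42% of 1.5-fold changes were recovered in simulated pools that varied independently. The share for the real arrays is not known, which limits what the uncalled members can show.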
